A study of Mus musculus with 6 samples.

Results

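The subject here is the long intergenic non-coding RNA (lincRNA) genes that were well expressed in a pair of mouse mammary carcinoma lines, 4T1 and 4TO7. A gene was a member if the deposited table gave it the biotype lincRNA and a normalised count of 50 or more in at least 3 of the 6 libraries, and if it was not one of the imprinted RNAs H19, Meg3, Rian, Mirg, Peg13, Kcnq1ot1 and Airn. Of the 3573 lincRNA genes among the 47729 genes of the table, 147 were members. H19 also met the threshold and was left out by name. The members were thus chosen by the same normalised counts that are compared below, so their levels describe the rule. The threshold passed B230208H11Rik narrowly, with a third-highest library of 52.1, and Gm26762 with 52.4. It excluded Gm2115 with 46.8 and Gm17259 with 46.3.

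The study compared untreated cultures of the lines 4T1 and 4TO7, with 3 libraries of total RNA per line. Both lines trace to a spontaneous tumour of the BALB/c strain and were kept in medium with 10% serum. The labels give triplicate growth for each line, without saying whether the 3 cultures were independent. The p-values set the difference between the lines against the spread within each line, which may be technical variation only. As background, 4T1 cells spread from the mammary gland and grow out in distant organs, while 4TO7 cells reach those organs but rarely grow out there. Each line is 1 cell line, so a difference between the lines cannot be told apart from a difference between any pair of clones.

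lincRNAs are transcribed by RNA polymerase II from genes that lie between protein-coding genes, and most are capped, spliced and polyadenylated like messenger RNA. Some act at the site of their own transcription, some build nuclear bodies or bind proteins and small RNAs, and others mainly carry small RNAs in their introns. Many start close to the promoter of a coding gene and run away from it on the other strand. Most have no known function, and the class as a whole is less abundant than messenger RNA and varies more between cell types.

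The libraries held 33605566 to 39072639 reads assigned to genes. Epithelial markers separated the lines: 7 of 7 tested were higher in 4T1, with summed counts of 186060 to 208090 in 4T1 and 25836 to 42470 in 4TO7. Several were nearly absent from 4TO7: Epcam averaged 16980 in 4T1 and 23.7 in 4TO7, and Krt14 1363 and 0.349. Krt5 was near 0 in both lines and was not tested. The leukocyte markers Cd3e and Adgre1 were at 0 in every library, and the leukocyte list summed to 24.2 to 39.6 in 4T1 and 1.99 to 6.29 in 4TO7. Most of that sum was Csf1r, the only leukocyte marker that passed the filter. Csf1r was scarce but higher in 4T1 (28.0 ± 6.34 in 4T1 and 3.03 ± 1.91 in 4TO7, adjusted p = 5.78e-04). Endothelial markers summed to at most 18.2 and adipocyte markers to at most 3.98. The replicate numbered 2 of 4TO7 stood apart from the other 4TO7 libraries. Members were lower there by a median of 0.25 on the log2 scale (102 of 147, 69.4%), whereas over all genes tested the median difference was -0.01 and 51.1% were lower. Along the second principal component of the members, with 4.21% of the variance against 92.4% for the first, that library scored 6.07 and the others -2.84 to 1.34. The sum of the 5 fibroblast markers, mostly Pdgfra, was also lower in it, at 1710 against 6722 and 7484. In 4T1 that sum was 587 to 1359, and Pdgfra, the fibroblast marker that passed the filter, was higher in 4TO7 (897 ± 399 in 4T1 and 5286 ± 3123 in 4TO7, adjusted p = 0.00769). Its part in the results was not tested.

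The members' levels spanned a wide range, and most were scarce. The mean normalised count over the 6 libraries was under 100 for 64 members, 100 to 500 for 62, 500 to 1000 for 11 and 1000 or more for 10, with a median of 133. Over all genes tested, which needed only 10 or more in at least 3 samples, the median was 919.6. Over all genes that met the members' threshold of 50 it was 1346. Per kilobase of exon, the most abundant member was Gm42418, at 28008 normalised counts per kilobase in 4T1 and 23854 in 4TO7. RefSeq lists this symbol as a synonym of Rn18s-rs5, a gene related to 18S ribosomal RNA, and Gm26917 lies 617 bases from it on chromosome 17, at 2818 and 2283 per kilobase. The next in order were Malat1 (1078 in 4T1 and 1251 in 4TO7), 3300005D01Rik (1072 and 888), Snhg6 (909 and 471) and Epb41l4aos (828 and 611), all per kilobase. Together the 147 members took 0.330%, 0.253% and 0.289% of all normalised counts in the 4T1 libraries and 0.323%, 0.278% and 0.330% in those of 4TO7. Without Gm42418 and Gm26917, the shares were 0.121%, 0.130% and 0.138% in 4T1 against 0.170%, 0.136% and 0.180% in 4TO7, so the lines overlapped only through 4TO7 replicate 2.

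Between the lines, 21 members were higher in 4T1 and 51 were higher in 4TO7, at an adjusted p under 0.05 from limma on log2(normalised count + 1). The 72 calls are 49.0% of the members, and 49.0% of all 14276 genes tested were called. The directions were uneven: 14.3% of members were higher in 4T1 against 25.1% of all genes, and 34.7% were higher in 4TO7 against 23.9% of all genes. Of the members' calls 70.8% were toward 4TO7, against 48.8% of the calls over all genes. The median difference, 4T1 minus 4TO7, was -0.27 over the members and 0.03 over all genes on the log2 scale. All 3 4T1 values lay above all 3 4TO7 values for 31 members, where 29.8% of all genes did so, and the reverse held for 62, where 28.7% of all genes did so. In 54 members the lines overlapped (58.4% of all genes did not overlap). In these bulk libraries, fewer cells that make an RNA and less of it per cell cannot be told apart. Leaving out 4TO7 replicate 2 gave 24 members higher in 4T1 and 62 higher in 4TO7. That fit also called more of all 14276 genes, 4162 higher in 4T1 and 3902 higher in 4TO7.

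**Figure D1:**
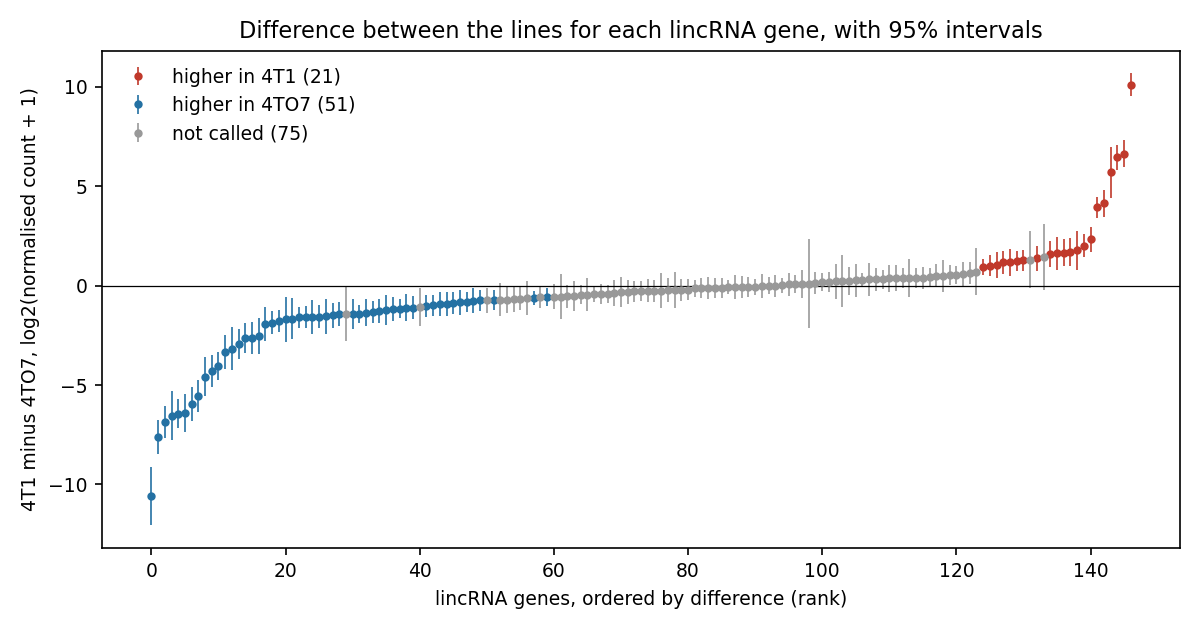
Difference between the lines for each of the 147 lincRNA genes, 4T1 minus 4TO7 on the log2(normalised count + 1) scale, ordered from lowest to highest; points are estimates from limma and bars are 95% intervals. The 51 genes called higher in 4TO7 lie at the left, the 21 called higher in 4T1 at the right, and the 75 without a call lie between -1.42 and 1.44.

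Part of this count was fixed by the membership rule. A gene expressed in 1 line alone reached 50 in 3 libraries only by differing between the lines: 11 members reached 50 in 4T1 libraries only and 23 in 4TO7 libraries only, and all 34 were called. The other 113 members reached 50 in at least 1 library of each line. Of these, 10 were higher in 4T1, 28 were higher in 4TO7 and 75 were not called. That is 33.6% called, against 46.5% of all genes that met the same condition. Of the members' calls 73.7% were toward 4TO7, against 47.3% of the calls over all such genes. Without 4TO7 replicate 2 the members' counts were 13 and 39, and 3247 and 2816 over the 11024 such genes. These genes differ in level, with a median of 161 in the members and 1500 in all such genes. Among genes with a mean under 500, 8 of 95 members were higher in 4T1 and 26 in 4TO7 (76.5% of calls toward 4TO7). Protein-coding genes gave 330 and 538 of 1933 (62.0% toward 4TO7). Levels still differed under this cut, with a median of 135 in the members and 265 in the coding genes. Other non-coding classes that reached 50 in both lines differed among themselves. Antisense genes had 73.3% of 30 calls toward 4TO7, genes of the class TEC (predicted genes that await experimental evidence) had 87.5% of 16, and processed transcripts had 51.2% of 41. The differences between these shares were not tested.

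**Figure D2:**
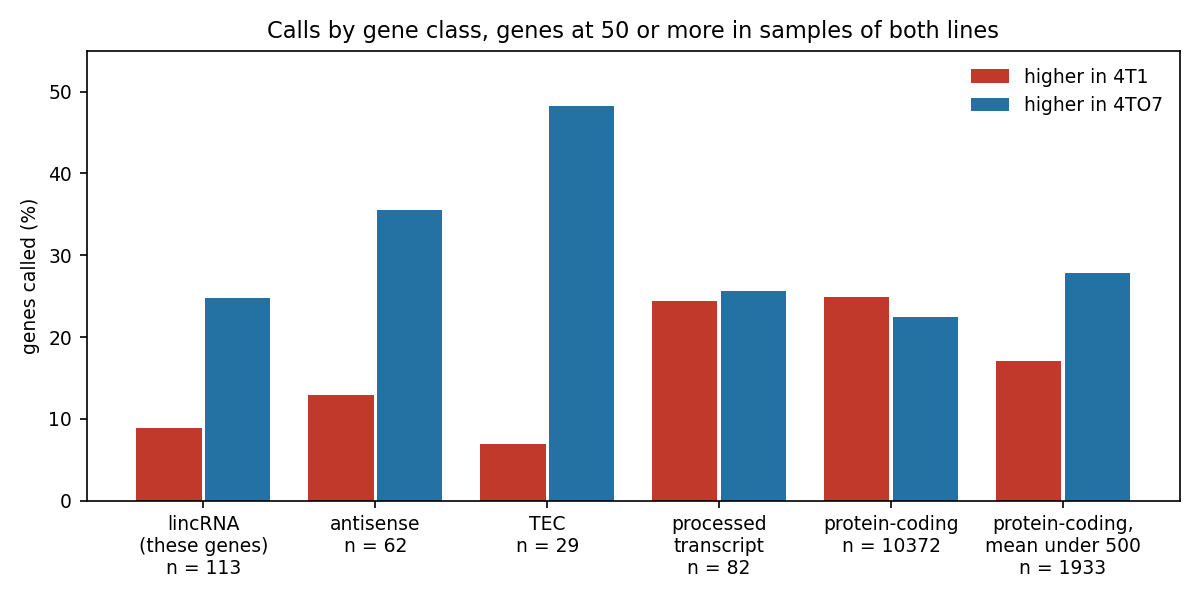
Share of genes called higher in 4T1 (red) or higher in 4TO7 (blue) by limma, in percent, for gene classes that reached a normalised count of 50 in at least 1 library of each line; n is the number of genes. The lincRNA genes had 8.85% called higher in 4T1 and 24.8% called higher in 4TO7, and protein-coding genes had 24.9% and 22.4%.

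Of the 21 members higher in 4T1, 20 differed at least 2-fold on this scale, 8 at least 4-fold and 5 at least 16-fold. Of the 51 higher in 4TO7, 40, 17 and 11 did so. These counts include the 11 and 23 members that reached 50 in 1 line only, which had to differ to meet the rule. No such counts were made over all called genes, so they do not show whether the members' differences were unusually large. In the authors' deposited table, 21 of the 21 and 50 of the 51 had an adjusted p under 0.05 in the same direction, and 7 of the 75 members that limma did not call had one as well. Among the 75 members not called, 63 had an estimate within 1.5-fold, and 42 had a 95% interval that lay inside 2-fold in both directions. For the other 33 a 2-fold difference lay within the interval.

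The members with the largest excess in 4T1 were led by 2010300F17Rik, on chromosome 11 (chr11:96712982-96747436, minus strand). Its normalised counts were 1043, 1114 and 1179 in 4T1 and 0 in each 4TO7 library. The lines did not overlap, and against a floor of 3 reads over the 4TO7 libraries the RNA was at least 1123-fold higher in 4T1 (adjusted p = 1.04e-07). It overlaps Skap1, which codes for an adaptor protein known from T cells, on the other strand. Skap1 stood at 17.8 ± 0.403 in 4T1 and 0.332 ± 0.575 in 4TO7 (SD, n = 3 per line), and the strand setting of the read counting is not stated in the labels used here, so reads of the overlapping pair cannot be told apart.

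Mirt1, a lincRNA first described in the infarcted mouse heart, is on chromosome 19 (chr19:53443230-53464796, minus strand). Its counts were 1810, 2505 and 1347 in 4T1 and 15.9, 23.1 and 20.9 in 4TO7. Every 4T1 library lay far above every 4TO7 library, a 94.6-fold ratio of means (difference 6.46 ± 0.28, SE, adjusted p = 7.32e-07). Lincenc1, an RNA known from pluripotent stem cells (chr13:97434970-97497007, plus strand), was read at 375, 508 and 412 in 4T1 and at 25.3, 25.2 and 29.9 in 4TO7. The lines were again apart, by 16.1-fold (difference 3.96 ± 0.23, SE, adjusted p = 3.45e-06). AU020206, abundant in both lines, had 1675, 1757 and 1501 in 4T1 against 553, 981 and 576 in 4TO7. It was 2.34-fold higher in 4T1 with no overlap (adjusted p = 0.00242), and among the 4TO7 libraries the replicate numbered 2 was the highest.

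AU020206 was not among the 12 largest differences toward 4T1 and was chosen after its values were seen. Those 12, beside 2010300F17Rik, Mirt1 and Lincenc1, included Gm42505, with 100.1 ± 13.2 in 4T1 and no reads in 4TO7 (at least 100.9-fold), and Gm12022, with 108, 75.7 and 68.5 in 4T1 against 3 reads in all of 4TO7. The read ratio of Gm12022 was 84.6, with an exact 95% interval of 28.6 to 413 that covers counting error only. Gm43057 (81.3 ± 15.9 against 3.62 ± 0.431) and Gm19589 (430 ± 127 against 82.3 ± 9.90) followed. RP23-143J24.4, Gm17501, Gm26586, Gm4262 and B230208H11Rik differed 3.07- to 4.15-fold. Gm26586 overlaps Tpm4 on the opposite strand, which stood at 37317 ± 4687 in 4T1 and 11464 ± 1963 in 4TO7. Gm4262 likewise overlaps Litaf, at 4144 ± 201 and 2952 ± 749. Reads of these overlapping pairs cannot be told apart with certainty.

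The largest difference of all the members was that of E330013P04Rik (chr19:60144675-60162591, plus strand). It had 3.03, 1.99 and 0 normalised counts in 4T1 and 5606, 1521 and 5236 in 4TO7. All 4TO7 libraries lay far above 4T1, but the replicate numbered 2 held less than the others by more than 3-fold. The read ratio was 2543 (exact 95% interval 1089 to 7834, counting error only), and the difference was -10.60 ± 0.64 (SE, adjusted p = 4.50e-06). Its nearest coding gene, Fam204a, lies 35995 bases away and was not called (1326 ± 152 in 4T1 and 1467 ± 82.5 in 4TO7).

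Gm20756 (chr6:25931426-25977227, plus strand) had 0, 0.996 and 0 in 4T1 and 254, 192 and 304 in 4TO7. It rested on 1 read in 4T1 against 759 in 4TO7, a ratio of 760 with an exact interval of 136 to 30047. Gm12784 and Gm28187 had no read in any 4T1 library, and their 4TO7 means were 119 ± 38.9 and 87.8 ± 22.1, at least 122-fold and 89.4-fold above the floor of 3 reads. G730013B05Rik (2 reads against 423), Gm15398 (5 against 607) and Platr20 (1 against 235), the last named for its association with pluripotency, had read ratios of 212, 122 and 235. Their exact intervals were 58.2 to 1754, 51.8 to 376 and 41.8 to 9330. All 6 genes were thus at or near 0 in 4T1. Their presence in all 3 4TO7 libraries was fixed by the membership rule. A gene near 0 in 4T1 could meet that rule only by reaching the threshold in every 4TO7 library.

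Gm30074 (5.97 ± 2.75 in 4T1, 318 ± 74.6 in 4TO7), Gm3716 (24.9 ± 12.6 and 572 ± 148), Gm28321 (7.59 ± 3.20 and 161 ± 12.6), Gm5432 (3.95 ± 0.901 and 80.0 ± 15.7) and Gm42788 (7.93 ± 1.11 and 93.8 ± 39.5) completed the 12. They were 11.8- to 53.3-fold higher in 4TO7, each without overlap. The replicate numbered 2 was the lowest of the 4TO7 libraries for Gm30074, Gm3716, Gm5432 and Gm42788.

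**Figure D3:**
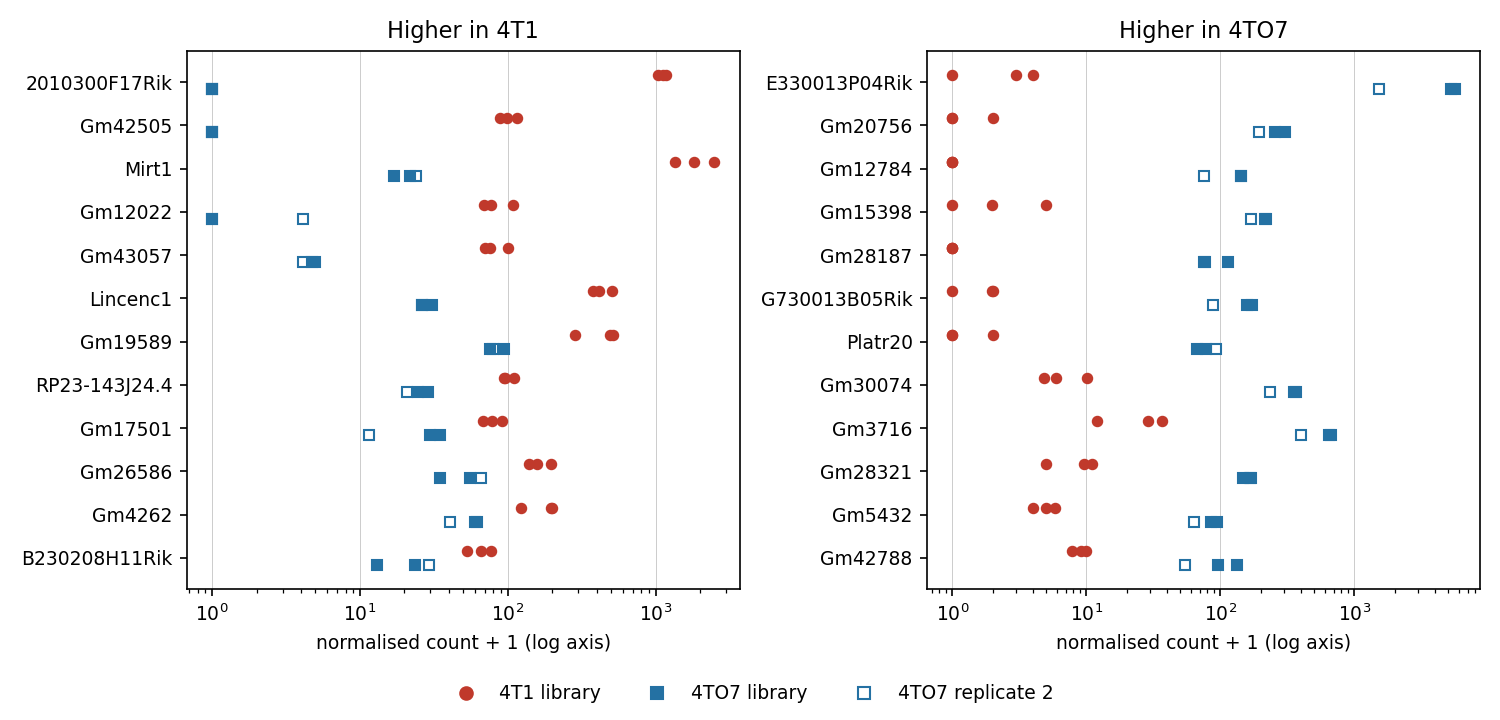
Normalised count + 1 (log axis) in each library for the 12 lincRNA genes with the largest differences toward 4T1 (left) and toward 4TO7 (right), among genes called with no overlap; red circles are 4T1 libraries, blue squares 4TO7 libraries and the open square 4TO7 replicate 2. A value of 1 stands for 0 counts, as for 2010300F17Rik in 4TO7 and Gm12784 in 4T1.

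To show where the RNAs with the most abundant excess in each line begin, their RefSeq promoter windows (250 bases before to 50 after the start, GRCm38.p6) are printed with CG dinucleotides in capitals. The window of Mirt1 is chr19:53464747-53465046 on the minus strand and holds 3 CG dinucleotides; that of E330013P04Rik is chr19:60144425-60144724 on the plus strand and holds 11.
Mirt1: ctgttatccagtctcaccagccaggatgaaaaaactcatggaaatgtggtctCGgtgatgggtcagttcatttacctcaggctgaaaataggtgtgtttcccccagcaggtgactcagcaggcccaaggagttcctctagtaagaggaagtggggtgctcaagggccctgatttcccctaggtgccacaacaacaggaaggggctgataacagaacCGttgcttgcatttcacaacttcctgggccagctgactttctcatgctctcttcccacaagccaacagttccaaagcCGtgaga
E330013P04Rik: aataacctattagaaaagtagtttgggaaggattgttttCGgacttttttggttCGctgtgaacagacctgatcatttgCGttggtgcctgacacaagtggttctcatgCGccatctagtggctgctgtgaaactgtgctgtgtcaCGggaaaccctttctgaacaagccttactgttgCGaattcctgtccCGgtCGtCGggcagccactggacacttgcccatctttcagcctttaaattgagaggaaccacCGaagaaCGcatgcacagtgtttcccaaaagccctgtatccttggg
Of the 147 members 88 had a RefSeq window. The window nearest to the gene's start in the GENCODE M21 annotation was taken, without a distance limit. Some lay far from that start, as for AW112010 (5242 bases), 9530082P21Rik (6002) and Gm19705 (12627). The median CG count of the 88 windows was 12, against 7 over all 32851 windows, and 59.1% held 10 or more against 43.5%. Windows of the 65 members present in both lines had a median of 14, and those of the 23 members that reached 50 in 1 line only had a median of 8. The boxes searched, on both strands, were GGGCGG, in 51.1% of members' windows and 35.7% of all windows, CCAAT in 42.0% and 37.4%, TATAAA in 6.82% and 13.6%, and CACGTG in 9.09% and 7.15%. A match is a description of letters, not evidence that a factor binds.

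Many members sit beside a coding gene. Within 50 kb, 126 members had a protein-coding neighbour, by gene models of GENCODE M21 on GRCm38: 40 in head-to-head orientation, 36 on the same strand, 12 tail to tail, and 38 overlapping it, 31 of them on the opposite strand. In 102 pairs the coding gene was tested. In 31 pairs both genes were called, and in 28 of these (90.3%) they were higher in the same line. Protein-coding genes and their own nearest coding neighbour within 50 kb gave 1633 of 2213 (73.8%). Across genes, the differences of the 102 pairs had Pearson r = 0.52 and Spearman rho = 0.47, against 0.20 and 0.26 over 8372 coding pairs. The points share the same 6 libraries and are not independent. With overlapping pairs left out, where reads could be shared, the counts were 19 of 22 (86.4%) against 72.9% of coding pairs. Without 4TO7 replicate 2 they were 32 of 37 (86.5%). No test of the difference between these shares was made. The pairs include members that reached 50 in 1 line only, whose direction was set by the membership rule.

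**Figure D4:**
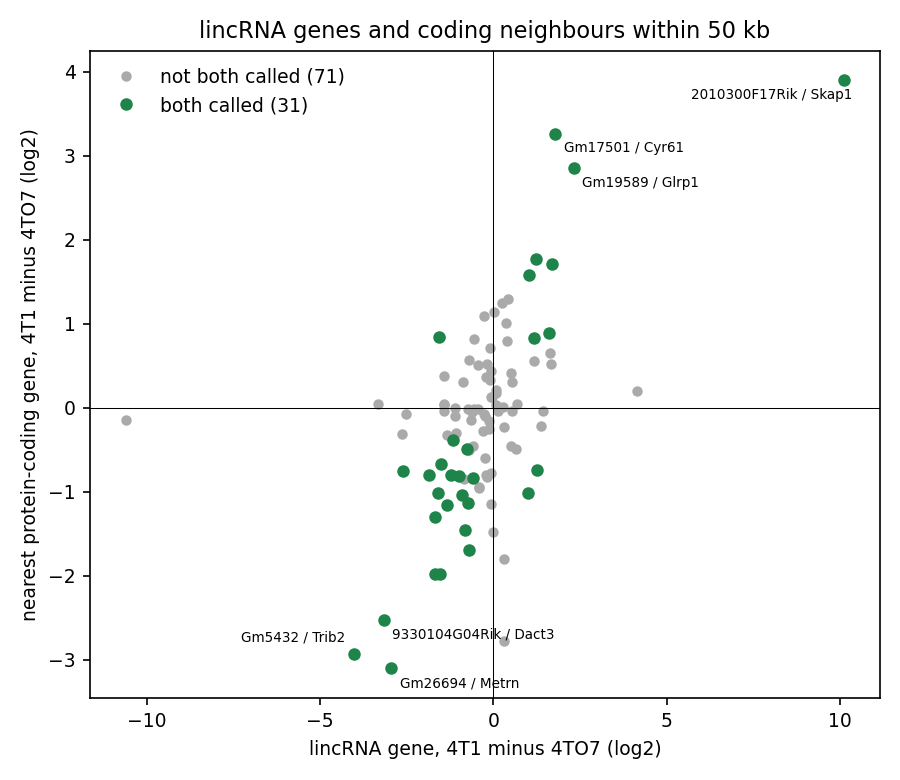
Difference between the lines, 4T1 minus 4TO7 on the log2(normalised count + 1) scale, for 102 lincRNA genes (horizontal) and the nearest protein-coding gene within 50 kb (vertical); green points are the 31 pairs with both genes called by limma, and grey points the other 71. Of the green points 28 lie below 0 on both axes or above 0 on both.

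Pairs that start within 2 kb of each other and run apart numbered 29. The lincRNA gene was called in 15 of them and both genes in 11, of which 10 had the same direction, 9 toward 4TO7 and 1 toward 4T1 (10 of 12 without 4TO7 replicate 2). The largest difference among these was that of Gm5432, whose start lies 81 bases from that of Trib2, a pseudokinase gene. Gm5432 had 3.03, 3.99 and 4.83 in 4T1 and 93.6, 62.9 and 83.6 in 4TO7, and Trib2 stood at 1155 ± 237 in 4T1 and 8847 ± 1828 in 4TO7 (difference -2.93, adjusted p = 1.14e-05). Both genes of the pair were thus higher in 4TO7, the lincRNA by 20.3-fold. 9330104G04Rik had 16.1, 5.98 and 21.2 in 4T1 and 152, 83.8 and 146 in 4TO7, beside Dact3, a regulator of Wnt signalling, at 13.5 ± 1.74 and 82.7 ± 12.1.

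Gm20554, next to the homeobox gene Irx2, had 74.7, 74.7 and 104 in 4T1 and 293, 215 and 264 in 4TO7, and Irx2 had 4208 ± 20.8 and 8518 ± 865. The lincRNA did not overlap between the lines and was 3.04-fold higher in 4TO7 (adjusted p = 9.24e-04). The other pairs toward 4TO7 were Gm16001 with Ogfod2, Gm14230 with the homeobox gene Tgif2, C030037D09Rik with the RNA-binding protein gene Msi2, AI480526 with the histone methyltransferase gene Setd1b, 5031425E22Rik with Kmt2e and 4632404H12Rik with the ubiquitin-conjugating enzyme gene Ube2q1. The pair toward 4T1 was Gm17501, at 77.7, 90.7 and 66.6 in 4T1 against 33.7, 10.5 and 28.9 in 4TO7, with Cyr61, a matricellular protein gene, at 11058 ± 1110 and 1201 ± 411. Calls of Gm16001, Gm14230 and 5031425E22Rik did not survive leaving out some single libraries (highest adjusted p of 0.0513, 0.0765 and 0.108).

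The exception was 2810029C07Rik. It had 38.3, 32.9 and 27.0 in 4T1 and 101, 106 and 89.6 in 4TO7, and was higher in 4TO7 (adjusted p = 0.00125). Its partner Mark3, a polarity kinase gene that starts 121 bases away, was higher in 4T1, at 5433 ± 406 against 3086 ± 734 (adjusted p = 0.00531). Outside the head-to-head group, AU020206 with Akap13 and Gpr137b-ps with Ero1lb were also opposed. The stretches between the starts are printed for 3 pairs that moved together and for the exception. They run up to the start of the coding gene, in its direction. They cover chr12:15816922-15817035 (minus strand), chr5:124112071-124112297, chr2:156839757-156840006 and chr12:111574271-111574520 (plus strand). Capitals mark the bases between the 2 starts as annotated in GENCODE M21. The nearest RefSeq start of Gm14230 lies 1803 bases from its start there.
Gm5432 and Trib2: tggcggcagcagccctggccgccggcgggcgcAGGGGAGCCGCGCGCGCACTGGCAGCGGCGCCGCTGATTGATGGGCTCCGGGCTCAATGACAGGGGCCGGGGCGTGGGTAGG
Gm16001 and Ogfod2: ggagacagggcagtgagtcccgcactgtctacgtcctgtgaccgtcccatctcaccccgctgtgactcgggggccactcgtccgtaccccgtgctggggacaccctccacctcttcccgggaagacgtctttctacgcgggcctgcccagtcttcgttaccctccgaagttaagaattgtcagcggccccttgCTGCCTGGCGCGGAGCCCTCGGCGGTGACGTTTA
Gm14230 and Tgif2: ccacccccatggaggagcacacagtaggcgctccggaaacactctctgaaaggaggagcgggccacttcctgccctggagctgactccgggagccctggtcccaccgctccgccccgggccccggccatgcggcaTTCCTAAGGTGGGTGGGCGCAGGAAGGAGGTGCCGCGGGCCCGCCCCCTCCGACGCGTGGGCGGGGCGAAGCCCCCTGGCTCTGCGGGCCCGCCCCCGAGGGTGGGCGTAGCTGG
2810029C07Rik and Mark3: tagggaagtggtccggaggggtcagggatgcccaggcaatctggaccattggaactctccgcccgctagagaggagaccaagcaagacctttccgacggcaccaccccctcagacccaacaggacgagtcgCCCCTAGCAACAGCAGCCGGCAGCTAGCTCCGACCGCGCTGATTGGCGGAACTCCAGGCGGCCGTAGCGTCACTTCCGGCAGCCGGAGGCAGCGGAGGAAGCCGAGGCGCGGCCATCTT
The whole 300-base RefSeq windows of the coding genes held 40, 32, 25 and 25 CG dinucleotides in this order, and each held GGGCGG on at least 1 strand.

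Gm26694 spans Metrn, which codes for a secreted neurotrophic protein, on the opposite strand. Gm26694 was at 9.28 ± 2.69 in 4T1 and 77.7 ± 18.4 in 4TO7, and Metrn at 1010 ± 251 and 8859 ± 2805, so their reads cannot be told apart with certainty. Gm12606 lies 1068 bases from Cdkn2a, the cell cycle inhibitor gene on chromosome 4. It was read at 57.5, 54.8 and 80.1 in 4T1 and 201, 219 and 244 in 4TO7, 3.45-fold higher in 4TO7 (adjusted p = 4.79e-04), while Cdkn2a itself had 0 reads in all 6 libraries.

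Malat1 and Neat1, neighbours 22036 bases apart on chromosome 19, build or occupy nuclear bodies: Malat1 collects in nuclear speckles and Neat1 is the scaffold of paraspeckles. Malat1 had 7245, 6038 and 9303 in 4T1 and 7854, 6646 and 11712 in 4TO7. Neat1 had 4164, 7857 and 8338 against 6655, 7074 and 8917. The lines overlapped for both, and neither was called. The intervals of the difference ran from -0.74 to 0.35 for Malat1 (adjusted p = 0.523) and from -0.81 to 0.40 for Neat1 (adjusted p = 0.543). Of 11 paraspeckle protein genes, 2 (Dazap1 and Smarca4) were higher in 4T1, and 4 without 4TO7 replicate 2. Of 6 nuclear speckle protein genes, 4 were higher in 4T1 without 4TO7 replicate 2, which the fit on all libraries did not call. Over all genes tested 25.1% were higher in 4T1, and 4162 of 14276 without 4TO7 replicate 2.

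Jpx and Ftx lie in the X inactivation centre and are known as activators of Xist, the RNA that silences 1 X chromosome in female cells. Ftx had 61.5, 49.8 and 50.2 in 4T1 and 104, 108 and 110 in 4TO7. The lines did not overlap, and Ftx was 1.99-fold higher in 4TO7 (difference -0.99 ± 0.23, SE, adjusted p = 0.00746). Jpx had 59.5, 64.8 and 41.5 against 108, 69.2 and 90.6, also without overlap, but was not called (adjusted p = 0.0796). It was called without 4TO7 replicate 2 (adjusted p = 0.0288) and with equal library totals (0.0486). Xist itself averaged 1.99 in 4T1 and 1.03 in 4TO7, below the filter, and Tsix was at 0. The spans of Jpx and Ftx overlap in the annotation on opposite strands.

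Several members carry small RNAs within their spans. The small nucleolar RNAs (snoRNAs), which guide chemical changes of ribosomal RNA, are cut from introns of host genes whose spliced RNAs often turn over fast. Snhg6, the host of Snord87, had 1227, 1038 and 861 in 4T1 and 495, 609 and 515 in 4TO7. It was 1.93-fold higher in 4T1 without overlap (difference 0.94 ± 0.18, SE, adjusted p = 0.00340). Snhg12, the host of Snora16a, Snora44, Snora61 and Snord99, had 646, 576 and 444 against 574, 574 and 669 and was not called (adjusted p = 0.573). Snhg20 (adjusted p = 0.526) and Epb41l4aos (0.146) were not called either. By annotation 3 further members hold such RNAs. 2700038G22Rik, which holds Snord93, was not called (157 ± 51.2 and 110.0 ± 36.5, adjusted p = 0.267), while Gm42788, which holds the snoRNA gene Gm23362, and 2900076A07Rik, which holds a related scaRNA, were higher in 4TO7.

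Snhg12 shows the pyrimidine run that is typical of such host genes at the transcription start. The RefSeq windows of 2700038G22Rik and Gm42788 also held one, and those of Snhg20 and 2900076A07Rik did not. The RefSeq start used lies 775 bases from the GENCODE M21 start for Snhg20 and 55 bases from it for Snhg12. No run was looked for at the GENCODE M21 start of Snhg20. The 30 bases around the RefSeq start of Snhg12, with the run in capitals, are as follows.
Snhg12: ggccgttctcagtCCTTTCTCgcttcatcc
A run of at least 5 C or T that begins with C within 10 bases of the start was present in 37.5% of the members' windows and 30.7% of all windows.
In a list of known snoRNA host genes of all biotypes, which does not hold the 3 members found by annotation, 7 of 14 tested were higher in 4T1 and 1 in 4TO7, where 25.1% and 23.9% of all genes were. Snhg1 (2982 ± 557 and 1211 ± 271), Snhg3, Snhg5, Snhg8, Snhg14 and 1110038B12Rik shared the direction of Snhg6, and Snhg17 was higher in 4TO7 (815 ± 188 and 1287 ± 84.3). Of 8 proteins of snoRNA particles, 4 were higher in 4T1, Nop58, Nhp2, Dkc1 and Nhp2l1, and 7 were higher there without 4TO7 replicate 2. Over all genes the share higher in 4T1 was 25.1%, and 4162 of 14276 without that library. Nop58, a core protein of the box C/D particle, averaged 17422 ± 3400 in 4T1 and 6614 ± 2311 in 4TO7 (adjusted p = 0.00203). Of 10 nonsense-mediated decay factors, which destroy many spliced host RNAs, 4 were higher in 4T1 (Upf1, Upf2, Upf3a and Smg5) and 1 in 4TO7 (Upf3b). The shares over all genes were again 25.1% and 23.9%.

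The hosts of microRNAs (miRNAs) differed among themselves. 6720427I07Rik holds let-7d, let-7f-1 and let-7a-1, and their seeds, bases 2 to 8 in capitals, are the same.
let-7a-5p: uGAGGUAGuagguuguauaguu
let-7d-5p: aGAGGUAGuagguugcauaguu
let-7f-5p: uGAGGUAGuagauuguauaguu
6720427I07Rik had 63.6, 68.8 and 66.6 in 4T1 and 111, 117 and 101 in 4TO7. It was 1.66-fold higher in 4TO7 with no overlap (adjusted p = 0.0254), though 7 of the 17 alternatives lost the call, with adjusted p between 0.0518 and 0.0870. Mir17hg, the host of the miR-17 to miR-92a cluster, holds 6 miRNAs, of which miR-17 and miR-20a share a seed, as do miR-19a and miR-19b. The arm known to be abundant is printed for each.
miR-17-5p: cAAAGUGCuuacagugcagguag
miR-20a-5p: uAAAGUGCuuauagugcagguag
miR-18a-5p: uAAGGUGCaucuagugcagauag
miR-19a-3p: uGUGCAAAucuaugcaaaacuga
miR-19b-3p: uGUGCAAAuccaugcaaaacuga
miR-92a-3p: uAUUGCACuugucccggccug
Its counts were 182, 366 and 174 in 4T1 and 127, 292 and 199 in 4TO7, so the lines overlapped (adjusted p = 0.675). The replicates numbered 2 were the highest in both lines. Ftx holds miR-421 and miR-374b, and 2900076A07Rik, which holds miR-1839, was higher in 4TO7 (55.2 ± 11.6 and 106 ± 17.7, adjusted p = 0.0186), a call that 4 leave-one-out fits lost. C130071C03Rik, which holds miR-9-2, was not called (adjusted p = 0.169). Mature miRNAs were not measured, and the table's own rows for these small RNAs stood at 0 to 3.14 for the miRNAs.

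**Figure D5:**
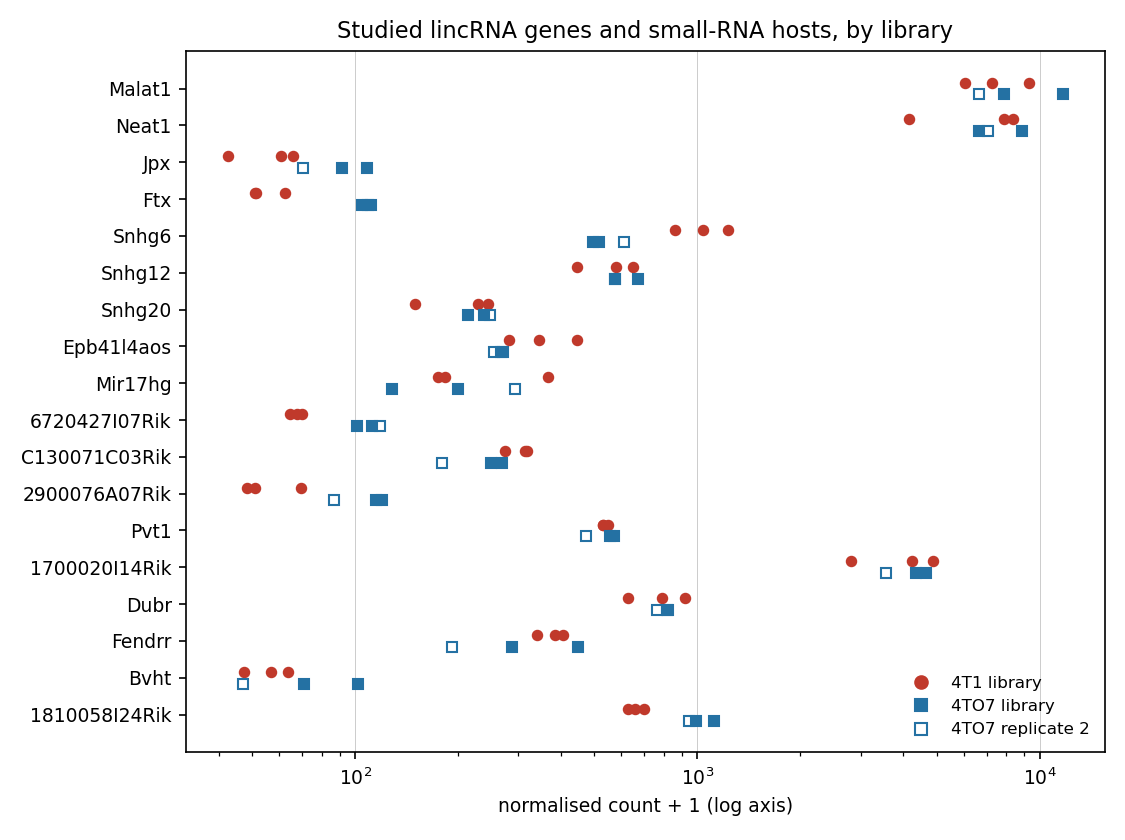
Normalised count + 1 (log axis) in each library for studied lincRNA genes and hosts of small RNAs; red circles are 4T1 libraries, blue squares 4TO7 libraries and the open square 4TO7 replicate 2. Snhg6 lies higher in all 4T1 libraries, Ftx and 1810058I24Rik lie higher in all 4TO7 libraries, and Malat1 and Neat1 overlap.

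Most other well-known lincRNAs were not called. Pvt1, the neighbour of Myc, had 549, 530 and 528 in 4T1 and 554, 471 and 570 in 4TO7 (interval of the difference -0.35 to 0.38, adjusted p = 0.942). 1700020I14Rik, the RNA called Cyrano that directs the destruction of miR-7, had 2814, 4869 and 4237 against 4652, 3570 and 4358 (adjusted p = 0.709). Dubr (adjusted p = 0.830), known from muscle differentiation, Fendrr (0.349), needed in lateral mesoderm, and Bvht (0.433), known from cardiovascular commitment, overlapped between the lines. 1810058I24Rik, which has a small open reading frame that codes for a mitochondrial microprotein, had 699, 626 and 656 in 4T1 and 992, 946 and 1121 in 4TO7. It was 1.54-fold higher in 4TO7 without overlap (difference -0.62 ± 0.15, SE, adjusted p = 0.00851).

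Among studied lncRNA genes of other biotypes, 7 of 20 tested were higher in 4T1 and 5 in 4TO7 (60.0% called, against 49.0% of all genes). This count is not separate from that of the snoRNA hosts above. It again holds Snhg1, Snhg3, Snhg5, Snhg8, Snhg14 and 1110038B12Rik toward 4T1 and Snhg17 toward 4TO7. 2900097C17Rik, the RNA Norad that binds Pumilio proteins, was higher in 4TO7 (263 ± 120 and 586 ± 20.8, adjusted p = 0.0191), and the Pumilio genes were not called. The miRNA hosts C430049B03Rik and Mir99ahg were higher in 4TO7, and Hotairm1, a lncRNA of the HoxA cluster, in 4T1 (243 ± 33.9 and 134 ± 51.1). Over 55 protein partners of lncRNAs, 13 were higher in 4T1 and 3 in 4TO7 (23.6% and 5.45%, where 25.1% and 23.9% of all genes were). With 4TO7 replicate 2 dropped, 26 partners were called toward 4T1 and 3 toward 4TO7. Among all 14276 genes the same reduced fit called more as well, 4162 toward 4T1 and 3902 toward 4TO7. Of 10 genes of the nuclear exosome, which degrades nuclear RNA, and its adaptors, 2 were higher in 4T1 and 1 (Rbm7, 1937 ± 120 and 2573 ± 74.1) in 4TO7. Those higher in 4T1 were Dis3 and Skiv2l2, at 5923 ± 813 against 2114 ± 918 and 5385 ± 423 against 2374 ± 469. Drosha, which cuts miRNA precursors out of host transcripts, was higher in 4T1 (7267 ± 300 and 4607 ± 343).

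The members were spread unevenly over the chromosomes. Chromosome 5 held 21 of them (14.3%), against 9.66% of all lincRNA genes in the table and 6.70% of all genes tested. GENCODE M21 listed 118 of the 147 as lincRNA, 10 as antisense, 8 as bidirectional promoter lncRNA and 7 as processed transcripts. Kantr, named there as protein-coding, was higher in 4TO7 (difference -1.70), as was Tspyl2 (difference -1.98, adjusted p = 2.04e-05), which lies 9357 bases away on the same strand. The call of Kantr was lost without 4TO7 replicate 1 (adjusted p = 0.0601) or replicate 3 (0.0520). The median member had 2491 exon bases, and 18 members had a single exon.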

How the data were processed

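RNA was sequenced from 4T1 and 4TO7 cells, 3 libraries per line. The submitters' processing notes list the tools STAR 2.5, featureCounts 1.5 and DESeq2 and the build GRCm38; the annotation release and strand setting are not given in the sources used here. Per the file headers, the deposited sample columns hold a normalised signal, which the values show to be gene counts over a library-wide size factor. The authors' deposited comparison gives log2 fold changes, a test score and p-values. All values of a library were whole multiples of a single step (100% within 1e-06), so reads were recovered exactly and used in the count tests and exact ratio intervals.

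Values were compared as log2(value + 1) with limma 3.58.1 in R 4.3.3 (trend, robust, two-sided), on 14276 genes with 10 or more in at least 3 samples, Benjamini-Hochberg adjusted over all of them, threshold 0.05. Differences are 4T1 minus 4TO7, and a fold is a ratio of line means unless reads are named. On this scale differences of scarce genes are understated. In a simulation of this comparison with 14276 genes, limma recovered 37.3% of 2-fold and 90.9% of 4-fold changes, with 3.26% of calls false. The real comparison called far more genes, so these shares do not carry over.

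Gene spans and exons came from GENCODE M21 by Ensembl identifier (147 of 147 found), and promoters and miRNAs from RefSeq, GRCm38.p6. The members, the lists and the tests were chosen with earlier results of these data known. Named in full were members of lists of studied lincRNAs and, per direction, the 12 called members with the largest differences and no overlap; coding neighbours were named beside them. Other members, among them those of the neighbour pairs, were named after their values were seen. Alternatives changed the offset, filter, scaling, variance model, membership threshold and libraries used, added a replicate block, and ran edgeR 4.0.16 and DESeq2 1.42.0 on the recovered reads.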

Additional observations from a re-analysis of the deposited data

How the results depend on the processing

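Over 17 alternatives 58 of the 72 calls were kept in every one, 14 were lost in at least one, and 23 of the 75 members without a call gained one; no difference of a called member changed sign. The members higher in 4T1 numbered 20 to 24 and those higher in 4TO7 39 to 62 when 1 library was left out, the last without 4TO7 replicate 2. The counts were 21 and 54 with edgeR and 22 and 56 with DESeq2. Equal library totals gave 21 and 59 and moved the median of all genes from 0.03 to -0.10 and that of the members from -0.27 to -0.40; over all genes this scaling gave 57.9% of calls toward 4TO7. A membership threshold of 20 gave 239 members, of which 35 (4T1) and 84 (4TO7) were called, and one of 100 gave 90 members, of which 13 and 31 were called, since fewer or more genes enter. The pairs of genes with the same direction made up 86.4% to 92.6% over the distances and subsets tried, except for head-to-head pairs without 4TO7 replicate 2 (10 of 12). The subsets without that library and of head-to-head pairs were chosen after the data were seen. With a replicate block 23 and 55 members were called. Deviations of same-numbered libraries from their line means had correlations of -0.01, 0.27 and 0.33 for numbers 1 to 3. Differently numbered libraries gave -0.39 to 0.27. These values do not settle whether the numbers pair the samples. The labels do not say so either, and the main fit did not use them as pairs. Scarce members limit the precision: an RNA with fewer than 3 reads in a line gives only a wide ratio.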
